A study of Mus musculus with 12 samples.

Results

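The comparison described here set small intestine of Apc-deficient mice against that of control mice, both with wild-type p53, across all genes that the arrays could detect. Control mice were Cre+ with wild-type Apc (arrays d5wt_110u, d5wt_323u and d5wt_474u) and Apc-deficient mice were Cre+ and homozygous for a loxP-flanked Apc allele (arrays D5fl_331u, D5fl_444t and D5fl_131u). The labels call each array a separate sample and do not say how many mice each stands for, so p-values measure the spread between these arrays. Cre was expressed from the AhCre transgene, whose promoter answers to inducers of Cyp1a, so the controls carried the same recombinase. All mice received intraperitoneal β-naphthoflavone at 80 mg/kg, as 3 injections in 1 day by the sample labels and as daily injections by the methods, and tissue was taken at day 5. The age and strain of the mice were not given in the labels. A probe set, the group of probes that stands for 1 transcript, entered the description when its detection p was under 0.05 on all 3 arrays of either group. This held for 19965 of 45101 probe sets on the array, of which 15128 were detected on all arrays of both groups, 3644 on all Apc-deficient but not all control arrays and 1193 on all control but not all Apc-deficient arrays. A further 2666 probe sets were detected on 2 arrays of a group at most and fell just outside, with a median of 80.6 for the higher of their 2 group means, against 136 for those that entered through 1 group with fewer than 2 detections in the other.

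Apc is a scaffold of the complex that marks β-catenin for destruction. Without it β-catenin accumulates, enters the nucleus and joins the TCF and LEF factors on DNA, which is the state that Wnt ligands normally impose only on cells at the base of the crypt. In the intestine that state goes with stem cell identity, division and positioning in the crypt, while differentiated enterocytes, goblet cells and enteroendocrine cells lie beyond its reach on the villus.

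The promoters of a few members are printed as examples of genes on either side of the comparison. They were taken from RefSeq (GRCm38.p6) as 300 bases each, 250 before and 50 after the annotated start, and were chosen after the values were seen, from list members of large change that held the motif searched. Capitals mark the motif on either strand. Sp5, a transcription factor induced by β-catenin (chr2:70474673-70474972, plus strand), holds CTTTGAT, a core read by TCF factors. Cdca7, a chromatin protein of proliferating cells (chr2:72475969-72476268, plus strand), holds TTCCCGC on the other strand, a core read by E2F factors. Ect2, an exchange factor needed for cytokinesis (chr3:27153829-27154128, minus strand), holds TTTGAA, the CHR element of late cell cycle genes. Tsr1, a ribosome assembly factor (chr11:74897830-74898129, plus strand), holds CACGTG, the E-box read by MYC with MAX. Ace, angiotensin-converting enzyme of the brush border (chr11:105967698-105967997, plus strand), holds CAAAGTCC on the other strand, part of the element read by HNF4 factors.
Sp5: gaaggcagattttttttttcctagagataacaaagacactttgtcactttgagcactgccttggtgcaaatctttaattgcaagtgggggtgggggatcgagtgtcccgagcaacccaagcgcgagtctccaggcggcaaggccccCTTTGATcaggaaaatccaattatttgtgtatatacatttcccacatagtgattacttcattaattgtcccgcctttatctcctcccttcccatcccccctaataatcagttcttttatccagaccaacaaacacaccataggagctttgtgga
Cdca7: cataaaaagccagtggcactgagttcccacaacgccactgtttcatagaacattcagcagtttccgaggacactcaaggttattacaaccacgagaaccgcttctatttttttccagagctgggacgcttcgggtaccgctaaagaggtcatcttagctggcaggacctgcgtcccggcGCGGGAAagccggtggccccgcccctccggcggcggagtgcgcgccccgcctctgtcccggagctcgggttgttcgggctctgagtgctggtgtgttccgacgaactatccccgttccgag
Ect2: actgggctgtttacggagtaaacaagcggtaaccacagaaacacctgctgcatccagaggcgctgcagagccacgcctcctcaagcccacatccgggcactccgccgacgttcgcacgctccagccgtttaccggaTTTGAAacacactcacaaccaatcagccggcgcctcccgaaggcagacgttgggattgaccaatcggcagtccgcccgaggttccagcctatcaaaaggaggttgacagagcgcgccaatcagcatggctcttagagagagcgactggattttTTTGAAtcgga
Tsr1: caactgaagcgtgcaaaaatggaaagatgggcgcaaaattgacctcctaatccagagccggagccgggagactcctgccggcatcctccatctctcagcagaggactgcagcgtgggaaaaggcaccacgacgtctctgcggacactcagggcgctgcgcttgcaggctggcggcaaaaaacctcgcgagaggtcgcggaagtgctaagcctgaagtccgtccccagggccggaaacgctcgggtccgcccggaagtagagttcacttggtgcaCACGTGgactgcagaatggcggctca
Ace: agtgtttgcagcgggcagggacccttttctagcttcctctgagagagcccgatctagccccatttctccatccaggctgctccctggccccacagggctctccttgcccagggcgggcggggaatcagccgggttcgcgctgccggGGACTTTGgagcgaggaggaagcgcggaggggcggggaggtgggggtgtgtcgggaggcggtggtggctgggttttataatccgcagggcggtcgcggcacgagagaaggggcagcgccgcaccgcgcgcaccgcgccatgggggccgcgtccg

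Of these genes, the first 4 rose and Ace fell. Sp5 had scaled signals of 130, 24.1 and 87.6 on the control arrays and 454, 1160 and 354 on the Apc-deficient arrays, 8.80-fold higher (adjusted p = 0.0073). Here and below, scaled signals are array intensities brought to a common mean log2 level, values are listed in the array order given above, and folds and adjusted p come from limma over 35622 probe sets. Cdca7 stood at 514, 470 and 457 in control and 2460, 2720 and 2870 in Apc-deficient intestine (5.58-fold, adjusted p = 0.0002). Ect2 rose from 158, 452 and 596 to 1490, 988 and 1680 (3.87-fold, adjusted p = 0.011) and Tsr1 from 349, 499 and 640 to 2020, 1480 and 2100 (3.83-fold, adjusted p = 0.0024). Ace fell from 4290, 2040 and 1520 to 130, 352 and 510, 8.30-fold lower (adjusted p = 0.0046). In none of the 5 did the groups overlap.

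Facts of the arrays that touch every result are these. The Apc-deficient arrays had more probe sets detected (21559 to 21833, against 18388 to 19416 on the control arrays). The control arrays were brighter where nothing was detected, with a median raw signal of 18.1 on d5wt_110u, 16.6 on d5wt_474u and less on d5wt_323u, all above the 6.1 to 8.1 of the Apc-deficient arrays, over probe sets undetected in both groups, and less so where all 6 arrays detected the transcript, at 414 to 486 against 335 to 361. With every array brought to the same mean over all tested probe sets, after the methods, the median change of the detected probe sets was 0.29 on the log2 scale. With the arrays centred on the detected probe sets instead, that median was 0.03, an offset of 0.26. Changes smaller than this offset have a direction that the scaling sets, and some genes are called under 1 scaling only. The other scaling is given below for most lists and for several such genes. In the file headers the detection columns of the control arrays share one prefix and those of the Apc-deficient arrays another, and what it stands for is not stated. Whatever it marks cannot be told apart from genotype.

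A total of 5089 detected probe sets were called higher in Apc-deficient intestine and 1775 lower at an adjusted p under 0.05, while 13101 were not called. Over all tested probe sets 16.1% were called higher and 11.0% lower, against 25.5% and 8.89% of the detected ones. With the arrays centred on the detected probe sets, 3988 were called higher (20%) and 3773 lower (18.9%), so the excess of increases depended on the scaling. No probe set was called in opposite directions by the 2 scalings, and 3976 increases and 1775 decreases were called by both. The other splits are 3544 higher and 2574 lower after quantile normalisation, 3714 and 2560 in the authors' normalised table, and 1031 and 5278 with no scaling. Since a probe set that entered through 1 group only was bound to lean towards that group, the counts were also taken over the 15128 detected on all 6 arrays. Of these, 3956 were called higher and 1184 lower, 2325 rose and 700 fell by at least 1 on the log2 scale, and 139 rose and 83 fell by at least 2. Over all detected probe sets, 3093 were called higher and 955 lower when the spread came from only the 6 arrays compared. Leaving out control d5wt_110u left 3125 increases and 984 decreases, and leaving out d5wt_474u left 3642 and 1134. Without both, 519 and 91 were called against the single control array that remained, whose spread is then taken from the other groups.

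**Figure D1:**
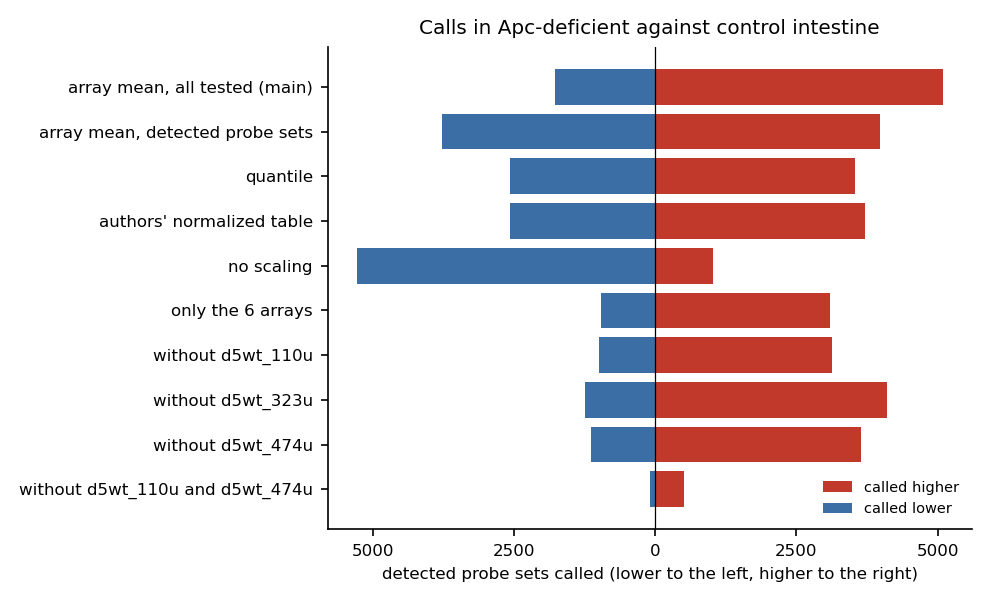
Detected probe sets called lower (bars to the left) and higher (bars to the right) in Apc-deficient against control intestine under the settings named at the left, as counts. The array mean over all tested probe sets gives 5089 higher and 1775 lower, centring on the detected probe sets 3988 and 3773, and no scaling 1031 and 5278.

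The largest increases among genes detected on all 6 arrays were led by Pla2g2a, a secreted phospholipase of Paneth cells. It had scaled signals of 212, 280 and 265 in control and 5030, 7980 and 2940 in Apc-deficient intestine, 19.6-fold higher (log2 change 4.29 ± 0.40, SE, adjusted p = 0.00038). Every Apc-deficient array lay far above the highest control. Mmp7, the matrix metalloprotease that processes Paneth cell defensins, stood at 933, 1130 and 893 against 5410, 6200 and 6550 (6.15-fold, adjusted p = 0.0007). Tnfrsf11b, the decoy receptor osteoprotegerin, rose 8.29-fold and Tubb2b, a β-tubulin, 6.06-fold, the latter from 162, 174 and 185 to 907, 972 and 1310 (adjusted p = 0.0003). Enzymes of serine and one-carbon metabolism stood in the same group, Mthfd1l at 8.16-fold and Psat1 at 6.62-fold. Ddit4, an inhibitor of mTORC1 induced by stress and by p53, rose from 329, 472 and 393 to 2570, 2100 and 2990 (6.41-fold, adjusted p = 0.00062). Slc39a10, a zinc importer, rose 5.87-fold, and Bex1, Zfp991, 2410002F23Rik and Tatdn2 between 6.01-fold and 8.61-fold. Only 1 of the 2 detected probe sets of Zfp991 was called, with log2 changes of -0.3 and 2.6. Tatdn2 stood at 2890, 431 and 1850 in Apc-deficient intestine and Gstcd at 3520, 339 and 2370, with the same array, D5fl_444t, far below the others. The call on Gstcd (5.85-fold, adjusted p = 0.019) was lost without D5fl_331u, D5fl_131u, d5wt_110u or d5wt_474u (adjusted p up to 0.063), and that on Ifit2 (6.49-fold, adjusted p = 0.044) without any of 7 single arrays, among them every array of the 2 groups but d5wt_323u (adjusted p up to 0.13).

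The largest decreases were led by Reg1, a lectin-like secreted protein of the regenerating islet family. It fell from 1230, 2600 and 7050 to 117, 231 and 186, 16.5-fold lower (log2 change -4.04 ± 0.61, SE, adjusted p = 0.0019). The highest value was that of d5wt_474u, in which the summed scaled signal of 16 exocrine pancreas genes was 89491, against 9630 and 13242 on the other control arrays and 3890 to 7429 on the Apc-deficient arrays. Reg1 is also a product of the pancreas. On the other controls, d5wt_110u and d5wt_323u, Reg1 also lay above all Apc-deficient arrays. Their pancreas sums were higher than those of the Apc-deficient arrays too, but only 5 of the 16 genes were detected by the rule. The median log2 scaled signal of those 5 was 8.65 on d5wt_110u and 7.96 on d5wt_323u, below the 8.95 to 10.81 of the Apc-deficient arrays. On d5wt_474u it was 12.6. The part of pancreas RNA in the decrease of Reg1 was not tested. Clca1, a goblet cell mucus protein, fell from 2980, 2470 and 3940 to 120, 291 and 515 (11.7-fold, adjusted p = 0.0012). Only 1 of the 2 detected probe sets of Clca1 was called, with log2 changes of -3.55 and -1.14. Fmo5, a flavin monooxygenase, fell 9.19-fold, Gsta4, a glutathione transferase, 7.44-fold, and the cytochromes Cyp2c68 and Cyp2c65 by 6.87-fold and 5.80-fold. Apoc3, an apolipoprotein of chylomicrons, fell from 4420, 2890 and 3080 to 321, 454 and 941 (6.59-fold, adjusted p = 0.0034), and Sec14l2, a lipid transfer protein, 7.04-fold. Asah2, the brush border ceramidase, fell 7.08-fold, Arg2, a mitochondrial arginase, 7.20-fold, and Aoc1, a diamine oxidase, 5.68-fold. Reg3a fell 5.33-fold from 1290, 1010 and 3210 on the control arrays, again highest on d5wt_474u. Lct, lactase, stood at 5740, 2590 and 2530 against 325, 368 and 1710 (5.69-fold lower, adjusted p = 0.023), with D5fl_131u much higher than the other Apc-deficient arrays. The calls on Arg2, Aoc1 and Lct were lost without d5wt_110u (adjusted p = 0.052, 0.05 and 0.086), and that on Lct also without D5fl_331u or D5fl_444t. All of these calls were also lost with only the 6 arrays compared.

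**Figure D2:**
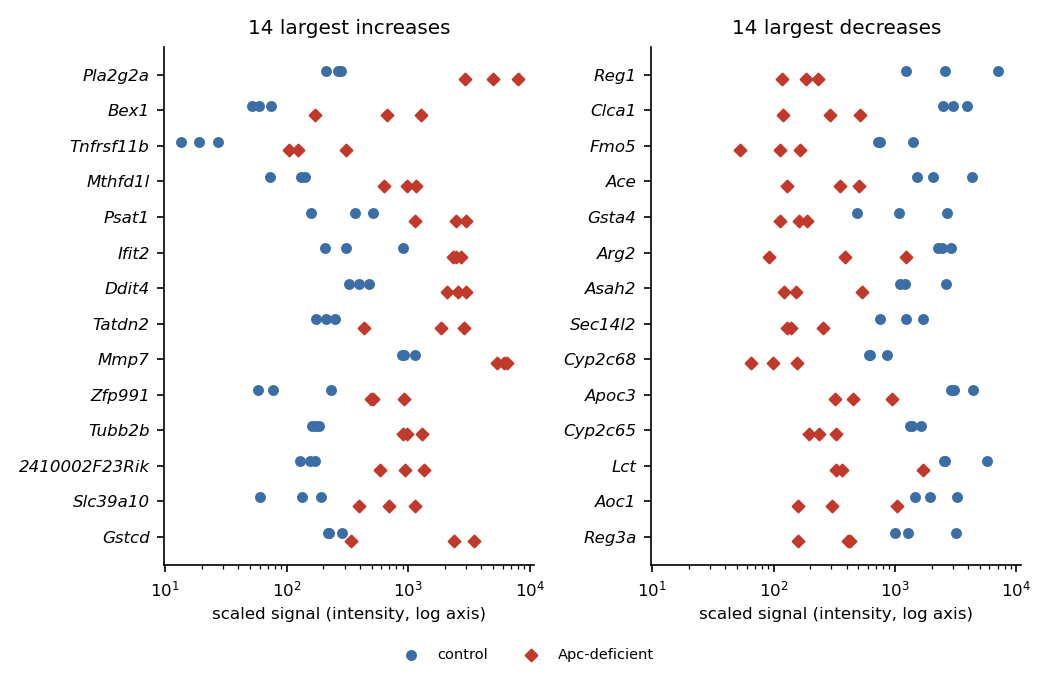
Scaled signal (intensity, log axis) on the 3 control arrays (circles) and the 3 Apc-deficient arrays (diamonds) for the 14 largest increases, left, and the 14 largest decreases, right, among called genes detected on all 6 arrays. Pla2g2a stood at 212 to 280 in control and 2940 to 7980 in Apc-deficient intestine, and Reg1 at 1230 to 7050 and 117 to 231.

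Some transcripts were detected on all arrays of 1 group and on none of the other, and for these the fold is a lower bound. It is a bound with respect to detection only, and leaves out the spread between arrays. It takes, on each array of the undetected group, the probe set's own signal or the lowest signal detected on that array, whichever is higher, and compares means of log2 values as all folds here do. Where the own signal was the higher on every array, as for Tnfrsf12a, Pole, Fzd6 and Rbp7, the bound equals the fitted fold, and with unequal arrays it can exceed the ratio of plain means. Each bound, here and below, is that of the probe set that stands for the gene, and other probe sets of the gene can change less. The largest bound was that of Tnfrsf12a, the receptor of the cytokine TWEAK, at 15.9, 12.9 and 21.1 in control and 1060, 1490 and 1230 in Apc-deficient intestine, at least 76.3-fold higher (adjusted p = 0.00011). Its 2 probe sets gave log2 changes of 5.39 and 6.25. Tnfrsf19, a receptor found on crypt stem cells, was at least 22.1-fold higher, although its 3 probe sets gave log2 changes from 1.03 to 4.46. Etv4, an ETS transcription factor, was at least 20.4-fold higher, Pole, the catalytic subunit of DNA polymerase epsilon, at least 18.8-fold, Lrp8, a lipoprotein receptor, at least 12.4-fold, and Fzd6, a Wnt receptor, at least 12.1-fold. Only 1 of the 2 detected probe sets of Lrp8 was called, with log2 changes of 0.95 and 3.97. In the other direction Gstm3, a glutathione transferase, was at least 18.4-fold lower and Cd79a, a chain of the B cell receptor complex, at least 15.7-fold lower, the latter from 656, 229 and 207 to 7.71, 58.0 and 14.9. The 2 probe sets of Gstm3 gave log2 changes of -4.2 and -2.57. Rbp7, a retinoid-binding protein, was at least 10.2-fold lower and Ugt2b5, a glucuronosyltransferase, at least 9.99-fold lower. Mfsd4b2 and Mapre3 were at least 7.92-fold and 7.36-fold lower, and the call on Mfsd4b2 was lost without d5wt_110u, D5fl_331u or D5fl_444t and that on Mapre3 without d5wt_474u (adjusted p up to 0.065 and 0.05). Both calls were also lost with only the 6 arrays compared. 

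Of 29 detected genes in a list of Wnt feedback inhibitors and targets, 20 rose and none fell (17 and 0 with the arrays centred on the detected probe sets), with a median log2 change of 1.54 against 0.29 for all detected probe sets. Over the 19 detected on all 6 arrays 12 rose. The lists were drawn up with earlier results of these data known. Axin2, the feedback scaffold that rebuilds the destruction complex, stood at a mean of 350 on the control arrays and at 1120, 2060 and 1230 on the Apc-deficient arrays, with no overlap (4.07-fold, adjusted p = 0.00092). Both of the ligases that clear Wnt receptors from the membrane rose, Rnf43 from 138, 100 and 163 to 520, 1090 and 643 (5.45-fold, adjusted p = 0.0007) and Znrf3 2.90-fold (adjusted p = 0.0016). So did the inhibitors Apcdd1 (2.76-fold) and Nkd1 (2.94-fold), the latter with a call that was lost without d5wt_110u, d5wt_474u or D5fl_131u (adjusted p up to 0.071). For Nkd1 2 of 3 detected probe sets were called, with log2 changes from 0.04 to 1.56. Myc, the transcription factor that drives growth, rose from 206, 305 and 321 to 1880, 2020 and 1460 (6.52-fold, adjusted p = 0.001). Cd44, an adhesion receptor, rose 3.60-fold with all 3 of its probe sets called, Sox4 5.65-fold, Tiam1, an activator of Rac, 6.37-fold, and Ets2 3.90-fold. For Sox4 3 of 5 detected probe sets were called, with log2 changes from 0.45 to 3.69, and for Ets2 2 of 3, from -0.29 to 4.37. Ccnd2, cyclin D2, rose from 1600, 1850 and 2020 to 4990, 4670 and 5540 (2.78-fold, adjusted p = 0.0015), with 3 of its 7 probe sets called and log2 changes between 0.32 and 1.86.

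Several members of the same pathway did not pass the test. Lef1, one of the factors that partner β-catenin, stood at 85.2, 81.2 and 78.7 in control and 109, 104 and 118 in Apc-deficient intestine (1.35-fold higher, adjusted p = 0.14). Tcf7l2, the main TCF factor of this epithelium, gave a ratio of 1.27-fold towards control (adjusted p = 0.35), with overlapping groups. Fzd7, a Wnt receptor of stem cells, stood at 193, 218 and 201 against 213, 214 and 198 (adjusted p = 0.91). Ctnnb1, the transcript of β-catenin itself, stood at 4460, 4720 and 4290 against 5670, 6550 and 7880 (1.48-fold higher, adjusted p = 0.061, and 0.21 with the arrays centred on the detected probe sets). Apc itself was 1.56-fold higher (adjusted p = 0.069), with 4 probe sets whose log2 changes ran from -0.72 to 1.79. Since which exons they cover was not examined, they do not check the genotype. Lect2, a target of β-catenin in liver, was detected on all arrays of neither group and is not among the genes described.

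Crypt stem cell genes formed the list with the largest share of increases, 19 of 21 detected and 16 of the 18 detected on all 6 arrays, with no decrease under either scaling and a median log2 change of 1.72. Lgr5, the R-spondin receptor that marks crypt base columnar cells, stood at 146, 123 and 154 against 527, 435 and 455 (3.35-fold, adjusted p = 0.0008). Ascl2, the transcription factor that sets their identity, rose from 64.9, 114 and 69.3 to a mean of 481 ± 226 (SD, n = 3), with no overlap between groups (5.61-fold, adjusted p = 0.0015). Olfm4, a secreted glycoprotein of the same cells, was already bright and rose 2.11-fold, from 4400, 3910 and 3400 to 7170, 8440 and 9030 (adjusted p = 0.0061). Slc12a2, a chloride importer of crypt cells, rose 4.23-fold with Apc-deficient values of 8780, 8970 and 8790, Sox9 3.76-fold and Aqp4, a water channel, 4.22-fold. Smoc2 rose 1.91-fold, a call lost without d5wt_110u (adjusted p = 0.053). Among the Eph receptors and ephrins, which sort crypt from villus cells, Ephb3 was at least 7.08-fold higher (adjusted p = 0.00041). Its partner ephrin of the villus, Efnb1, fell from 676, 748 and 650 to 275, 463 and 402 (1.86-fold, adjusted p = 0.014), and Epha1 fell 2.49-fold with a call lost without d5wt_110u or D5fl_331u (adjusted p up to 0.072). The list of these receptors and ligands held 2 increases and 3 decreases among 9 detected genes, or 1 and 1 without d5wt_110u, and 1 increase without d5wt_474u or D5fl_444t.

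Ribosome biogenesis was the longest list. In it 64 of 73 detected genes rose and none fell (56 and 0 with the arrays centred on the detected probe sets), 54 of 62 over those detected on all 6 arrays, with a median log2 change of 1.40. The list's median on the single arrays lay at 7.92 to 8.56 in control and 9.60 to 9.65 in Apc-deficient intestine on the log2 scale of the scaled signal, so that no array of one group reached the other. Ddx10, a helicase of the small subunit processome, rose from 209, 216 and 242 to 1050, 905 and 1130 (4.62-fold, adjusted p = 0.00027). Polr1a and Polr1b, the largest subunits of RNA polymerase I, rose 4.14-fold and 3.54-fold, Wdr75 4.28-fold and Nop58, a box C/D ribonucleoprotein, 3.48-fold. Ncl, nucleolin, rose from 2520, 3770 and 3650 to 7970, 9420 and 8470 (2.64-fold, adjusted p = 0.0058). Only 1 of 2 detected probe sets was called for Ddx10 and for Polr1a, with lowest log2 changes of 0.5 and 0.76. For Ncl 4 of 5 were called. The genes of the cytoplasmic ribosomal proteins themselves moved less, with a median log2 change of 0.75 and 23 of 33 called higher, but 12 with the other scaling, 4 after quantile normalisation and 3 in the authors' table. Their count ran from 2 to 23 over the 12 omissions of 1 array, lowest without d5wt_110u, and was 8 without d5wt_474u, 10 without D5fl_131u, 11 without D5fl_444t and 15 without d5wt_323u. With only the 6 arrays compared the count was 8. Ribosomal protein genes have many processed copies in the genome, which the probes may not separate.

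DNA replication genes rose in 41 of 51 cases and mitosis and spindle genes in 41 of 60, with none lower under either scaling. The counts were 34 of 42 and 35 of 51 over genes detected on all 6 arrays, and 40 and 36 with the arrays centred on the detected probe sets. Mcm6, a subunit of the replicative helicase, stood at 762, 999 and 808 against 2480, 3030 and 3060 (3.34-fold, adjusted p = 0.00075), Mcm2 rose 2.91-fold, and Hells, a chromatin remodeller of dividing cells, 3.28-fold. Of the detected probe sets 1 of 2 was called for Mcm2 and 2 of 3 for Hells, with lowest log2 changes of 0.44 and 0.07. Mki67, the proliferation antigen Ki-67, rose from 832, 1110 and 863 to 2400, 2040 and 2750 (2.57-fold, adjusted p = 0.0051), Top2a 2.62-fold, Plk1 2.37-fold and Plk4, which starts centriole duplication, 3.35-fold. Foxm1, a transcription factor of mitotic genes, stood at 181, 248 and 372 against 245, 270 and 192 (adjusted p = 0.77). Without d5wt_110u the mitosis count fell to 26, and the calls on Cdk1 (2.42-fold) and Pcna (1.92-fold) were lost (adjusted p = 0.056 and 0.09). The call on Pcna was also lost without d5wt_474u, D5fl_444t or D5fl_131u. The control array d5wt_110u was also the lowest of its group in the medians of all these lists, at 8.39 against 8.69 and 8.43 for DNA replication and at 7.85 against 8.17 and 8.15 for mitosis.

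Among regulators of G1, 12 of 28 detected genes rose and 1 fell (10 and 5 with the other scaling, 8 and 5 after quantile normalisation), and 6 rose without d5wt_110u and 7 without d5wt_474u or D5fl_331u, and 3 fell without D5fl_444t. Cdk6 rose 3.20-fold (adjusted p = 0.0013) and Cdk4 2.32-fold (adjusted p = 0.0094), the kinases that cyclin D activates. Cdkn2b, the inhibitor p15 of those same kinases, fell from 1050, 1030 and 862 to 89.7, 258 and 319 (5.02-fold, adjusted p = 0.0029). Ccnd1, cyclin D1, stood at 1350, 1860 and 1560 against 4140, 1760 and 4490 with overlapping groups (adjusted p = 0.047, and 0.068 with the other scaling). Its call was lost in 11 of 12 omissions of 1 array, all but that of D5fl_444t (adjusted p up to 0.15). Cdkn1a, the inhibitor p21 and a p53 target, stood at 1610, 2340 and 2370 against 1070, 2230 and 1270, with overlapping groups. It was not called (adjusted p = 0.23), but was called lower with the other scaling (adjusted p = 0.037). Cdkn2a was detected on 2 control arrays and no Apc-deficient array, and is not among the genes described. In the MYC network 10 of 22 genes rose and 4 fell (8 and 4 with the other scaling, 4 and 5 in the authors' table, and 2 fell without d5wt_474u). Next to Myc, Mycl was at least 3.86-fold higher, while Mxd1, a repressor that competes with MYC for MAX, fell from 2890, 2600 and 2240 to 540, 400 and 1070 (4.18-fold, adjusted p = 0.0024) and Mxi1, a relative of it, 2.13-fold. Max stood at 775 ± 473 against 513 ± 137 (mean ± SD, n = 3, adjusted p = 0.52).

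Enzymes of serine, one-carbon and purine synthesis moved with these lists, and 14 of the 21 detected genes of a list that joins them to polyamine synthesis rose, with none lower under either scaling. Phgdh, which commits glycolytic carbon to serine, rose from 275, 510 and 761 to 3170, 1750 and 3210 (5.51-fold, adjusted p = 0.004, all 4 probe sets called). Ppat, the first enzyme of purine synthesis, rose 6.16-fold (adjusted p = 0.00096) and Shmt2, the mitochondrial serine hydroxymethyltransferase, 3.80-fold (adjusted p = 0.014). For Shmt2 3 of 4 detected probe sets were called, with log2 changes from 0.1 to 1.92. Asns, asparagine synthetase, rose 3.46-fold (adjusted p = 0.0026), and Slc7a5, an importer of large neutral amino acids, from 21.7, 129 and 226 to 1330, 1170 and 700 (a log2 change of 3.58 ± 0.71, SE, adjusted p = 0.0057). Odc1, the first step to polyamines, rose 2.05-fold (adjusted p = 0.011). Glycolysis genes were split, with 3 of 26 higher and 3 lower (3 and 5 with the other scaling, 3 and 7 after quantile normalisation, 3 and 9 in the authors' table). Hk2, hexokinase 2, rose from 357, 573 and 451 to 3740, 2370 and 1790 (5.56-fold, adjusted p = 0.00071), while G6pc, which releases free glucose, was at least 7.13-fold lower and Khk, the first enzyme of fructose use, fell 4.70-fold (adjusted p = 0.00094). Of 42 respiratory chain genes 0 were called by limma (2 lower with the arrays centred on the detected probe sets, 2 lower without D5fl_444t, 8 lower after quantile normalisation and 17 lower in the authors' table), with a median log2 change of 0.08 or -0.18 by scaling, so no direction is given for them.

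**Figure D3:**
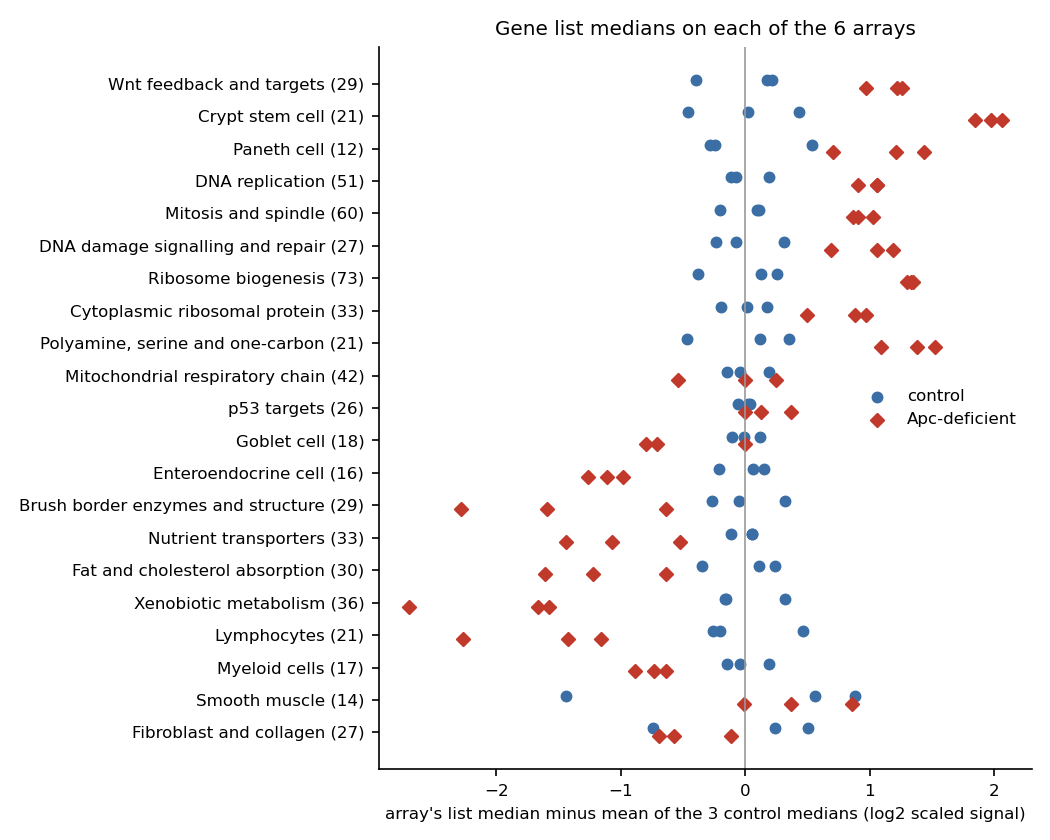
Median log2 scaled signal of the detected genes of 21 lists on each array, minus the mean of the 3 control medians (circles, control; diamonds, Apc-deficient; the number of genes in brackets). Crypt stem cell medians lay at 7.70 to 8.59 in control and 10.00 to 10.22 in Apc-deficient intestine, brush border medians at 10.76 to 11.35 and 8.75 to 10.39, and smooth muscle medians overlapped.

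The enterocyte lists moved the other way, with 16 of 29 brush border genes lower and none higher, 15 of 33 nutrient transporters lower and 2 higher, and 14 of 30 fat and cholesterol absorption genes lower and none higher. With the arrays centred on the detected probe sets the decreases numbered 24, 21 and 23, and over genes detected on all 6 arrays 12 of 22, 13 of 29 and 12 of 27. Treh, trehalase, fell from 1820, 1360 and 1820 to 231, 535 and 566 (4.01-fold, adjusted p = 0.0033). Slc2a5, the fructose transporter, fell from 826, 1270 and 855 to 190, 169 and 277 (4.65-fold, adjusted p = 0.0027), and Slc5a4a and Slc5a4b, relatives of the glucose transporter SGLT1, by 10.3-fold and 11.0-fold with 1 of 3 Apc-deficient arrays still detecting each. Abcg5, which returns plant sterols to the lumen, fell from 2390, 1810 and 1770 to between 223 and 713 (4.77-fold, adjusted p = 0.0071) and Npc1l1, the cholesterol importer, 2.85-fold. By contrast Vil1, villin of the microvillus core, stood at 6000, 5950 and 5240 against 3400, 4060 and 7130 (adjusted p = 0.43). Fabp2 stood at 8130, 8560 and 7430 against 3470, 7810 and 10500 (adjusted p = 0.62), and Apoa1 at 8800, 8210 and 7780 against 2490, 4640 and 10200 (adjusted p = 0.2). With the arrays centred on the detected probe sets Apoa1 was called lower (adjusted p = 0.043).

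In all 3 enterocyte lists the Apc-deficient arrays kept the same order, with D5fl_331u lowest and D5fl_131u highest. The brush border medians were 8.75, 9.44 and 10.39 against 10.76 to 11.35 in control, those of nutrient transporters 8.50, 8.87 and 9.42 against 9.83 to 10.00, and those of fat absorption 9.53, 9.92 and 10.50 against 10.79 to 11.38. Every Apc-deficient array was thus below every control array in each list. Without d5wt_110u, the control array with the highest brush border median, 7 brush border genes and 7 fat absorption genes were called lower, and the calls on Mme, Espn, Pdzk1, Slc2a2 and Slc15a1 were lost (adjusted p between 0.063 and 0.086). All of these but Espn were also lost without D5fl_331u or D5fl_444t, and Slc15a1 without any control array. The fat absorption count was also 7 without d5wt_474u and 8 without D5fl_331u, and the brush border count 10 without D5fl_331u. In a bulk tissue sample a smaller number of enterocytes and less RNA in each of them cannot be told apart, and the same holds for every cell type below. Of 13 detected genes of the proximal small intestine 5 fell and 1 rose (9 and 1 with the other scaling). The decreases numbered 1 without d5wt_110u and 0 without D5fl_331u. This list's array medians were 10.88 to 11.30 in control and 9.29 to 10.72 in Apc-deficient intestine. Whether all arrays held the same segment of bowel was not tested.

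Genes of xenobiotic metabolism fell in 21 of 36 cases and rose in none, with the arrays centred on the detected probe sets giving other counts (27 lower and 1 higher with the other scaling, 14 of 25 over genes detected on all 6 arrays). Its median log2 change was -1.48, and the array medians were 9.99 to 10.47 in control and 7.45 to 8.58 in Apc-deficient intestine. The count was 11 without d5wt_110u and 13 without D5fl_331u. Besides Ugt2b5, Gstm3, Fmo5, Gsta4 and Cyp2c65, the cytochrome Cyp3a25 stood at 2810, 373 and 612 against 12.8, 51.7 and 280 (15.1-fold lower, adjusted p = 0.023, lost without d5wt_110u, D5fl_331u or D5fl_444t, adjusted p up to 0.087). Targets of the aryl hydrocarbon receptor, through which β-naphthoflavone acts, were uneven among the Apc-deficient mice. Cyp1a1 stood at 2160, 3550 and 3580 against 1960, 3770 and 94.0 (adjusted p = 0.38). Cyp1b1 stood at 380, 608 and 610 against 2900, 4450 and 731 (4.06-fold higher, adjusted p = 0.052, and 0.045 with the other scaling). In both genes D5fl_131u was the lowest of its group.

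Among transcription factors of the intestine 4 of 20 rose and 3 fell (3 and 8 with the other scaling, and 1 lower without d5wt_110u or D5fl_331u). Over all detected probe sets 25.5% rose and 8.89% fell, so no direction is drawn from these counts. Hnf4a stood at 2200, 2030 and 2060 against 2130, 1580 and 2660 (adjusted p = 0.97). Its relative Hnf4g fell 2.92-fold (adjusted p = 0.026, lost without d5wt_110u, d5wt_323u, D5fl_331u or D5fl_444t, adjusted p up to 0.08), with all 3 probe sets called. Cdx1 rose from 467, 657 and 515 to 1040, 1210 and 1170 (2.10-fold, adjusted p = 0.0049) and Foxa1 3.05-fold (adjusted p = 0.0014), while Maf fell 2.61-fold (adjusted p = 0.0091). Among transporters that pass bile acids out of the enterocyte, Slc51a stood at 1610, 1520 and 1050 against 191, 380 and 445 (4.30-fold lower, adjusted p = 0.0029) and Abcc3 fell 2.72-fold. Genes of iron handling were read as well. Cybrd1, the ferric reductase of the brush border, rose from a mean of 45.2 ± 25.8 (SD, n = 3) to 237, 463 and 324 (8.03-fold, adjusted p = 0.00097), Steap1, of the STEAP family, 4.39-fold (adjusted p = 0.0046), and Tfrc, the transferrin receptor, 2.31-fold (adjusted p = 0.012, and 0.05 without d5wt_110u). In that list 3 of 11 genes rose, a share close to the 25.5% of all detected probe sets, and none fell (3 and 1 with the other scaling, 3 and 2 after quantile normalisation, 2 and 2 in the authors' table).

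The secretory lineages did not move together. Of 12 detected Paneth cell genes 6 rose and none fell under either scaling, and of the 8 detected on all 6 arrays 4 rose. Lyz1, lysozyme, rose from 133, 104 and 139 to 233, 265 and 278 (2.08-fold, adjusted p = 0.008) and Itln1, intelectin, from 3200, 2840 and 1810 to 6810, 7680 and 10600 (3.23-fold, adjusted p = 0.0091). Ang4 stood at 1860, 2320 and 1080 against 2250, 3020 and 4430 (adjusted p = 0.13), and Defa3 at 27.5, 40.6 and 37.8 against 53.1, 46.2 and 66.8 (adjusted p = 0.13). Defensins belong to a large family of near-identical genes, which the probes may not separate. Goblet cell genes fell in 6 of 18 cases and rose in 1 (8 and 1 with the other scaling, and 2 rose without D5fl_331u). Muc2, the main mucin of the mucus gel, fell from 3850, 3790 and 4670 to 2110, 1850 and 1670 (2.18-fold, adjusted p = 0.012), Fcgbp from 5730, 4890 and 5950 to 1300, 2350 and 1800 (3.12-fold, adjusted p = 0.0036) and Agr2, a disulfide isomerase that folds mucin, 3.14-fold. Galnt12 rose 2.19-fold (adjusted p = 0.0068). Tff3, trefoil factor 3, stood at 5800, 5870 and 5920 against 2140, 5040 and 4050, with no overlap (adjusted p = 0.1, and 0.013 with the other scaling). Retnlb, a goblet cell product, stood at 1380, 2810 and 3620 against 3700, 2.07 and 4160, undetected on D5fl_444t alone (adjusted p = 0.48).

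Of 16 detected genes of enteroendocrine cells 6 fell (9 with the other scaling), peptide hormones among them, and 1 rose. That 1 was Insm1, a transcription factor of these cells, whose call was lost without d5wt_110u, d5wt_323u or D5fl_331u, which left 0 higher. The 2 detected probe sets of Insm1 gave log2 changes of -0.56 and 1.18. Gip stood at 1020, 1020 and 1230 against 134, 316 and 310 (4.61-fold lower, adjusted p = 0.0024), Gcg at 706, 801 and 554 against 132, 123 and 243 (4.30-fold, adjusted p = 0.0014) and Cck at 338, 482 and 485 against 91.2, 164 and 145 (3.32-fold, adjusted p = 0.0023). Sst, somatostatin, was at least 2.52-fold lower. The general granule proteins of the same cells did not pass the test, Chga at 351, 388 and 274 against 366, 321 and 422 (adjusted p = 0.71) and Chgb at 1380, 1650 and 1640 against 1690, 1700 and 1830 (adjusted p = 0.64). Atoh1, which commits cells to secretory fates, stood at 262, 379 and 302 against 284, 223 and 382 (adjusted p = 0.81) and the Notch target Hes1 at 355 ± 58 against 388 ± 33.5 (mean ± SD, n = 3, adjusted p = 0.74). Trpm5, the taste channel of tuft cells, was at least 3.40-fold lower (adjusted p = 0.0052), and 4 of 14 tuft genes measured were detected by the rule. Of these 1 fell, 2 without D5fl_444t or D5fl_131u, and 4 with the other scaling.

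Genes of DNA damage signalling and repair rose in 21 of 27 cases, with none lower under either scaling (17 higher with the other, and 17 of the 20 detected on all 6 arrays). Topbp1, an activator of the kinase ATR, rose from 314, 461 and 345 to 1550, 1220 and 1570 (3.90-fold, adjusted p = 0.0007), Blm, a helicase, was at least 3.41-fold higher, and Atm rose 2.65-fold (adjusted p = 0.0068). H2ax stood at 732, 1030 and 955 against 1570, 1850 and 1580 (1.85-fold higher, adjusted p = 0.025), a call lost without d5wt_110u, d5wt_474u or D5fl_444t (adjusted p up to 0.092). Without d5wt_110u, 13 genes of the list were called. For Trp53 the scaled signals were 190, 203 and 274 against a mean of 344 ± 63.9 (SD, n = 3, 1.55-fold higher, adjusted p = 0.34). Of 26 detected p53 targets 8 rose and 2 fell (4 and 0 without d5wt_110u, 5 higher without d5wt_323u or D5fl_131u, 0 lower without D5fl_331u and 1 lower without d5wt_323u or d5wt_474u), or 4 and 4 with the arrays centred on the detected probe sets, and the median log2 change was 0.26 or 0.00. After quantile normalisation 5 rose and 3 fell. The 8 increases are a share near the 25.5% of all detected probe sets. Mdm2, the ligase that removes p53, stood at 568, 576 and 451 against 484, 731 and 481 (adjusted p = 0.88). Of its 3 probe sets 1 was called lower, and their log2 changes ran from -0.72 to 0.27. Siah1a, a ubiquitin ligase, rose from 158, 210 and 211 to 406, 619 and 466 (2.56-fold, adjusted p = 0.004), with 2 of 3 probe sets called. Among apoptosis regulators 7 of 25 rose and 2 fell, shares near the 25.5% and 8.89% of all detected probe sets (5 and 3 with the other scaling, 3 and 0 without d5wt_110u, 4 and 0 without d5wt_474u, and at most 1 lower in 8 further omissions of 1 array, and 4 and 4 after quantile normalisation). Bok, a death effector of the BCL2 family, rose 3.45-fold (adjusted p = 0.0018), and Bcl2, its survival relative, was at least 2.03-fold higher (adjusted p = 0.011).

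Genes linked to invasion and to the fetal gut gave 6 increases and 3 decreases among 18 (6 and 4 with the other scaling, 4 and 3 after quantile normalisation, 3 and 3 in the authors' table). Hmga2, a chromatin protein of fetal tissues, rose from 53.4, 61.8 and 59.7 to a mean of 286 ± 109 (SD, n = 3, 4.69-fold, adjusted p = 0.0012, 3 of 4 probe sets called), while Igf2bp3, an RNA-binding protein of the same class, fell from 492, 471 and 651 to 182, 114 and 153 (3.62-fold, adjusted p = 0.0011). Claudins of the tight junction moved in both directions. Cldn2, the claudin of the crypt, stood at 702, 2360 and 2160 against 4780, 4620 and 5010 (3.14-fold higher, adjusted p = 0.017), and Cldn15, that of the villus, at 2780, 3360 and 2760 against 877, 1130 and 1630 (2.52-fold lower, adjusted p = 0.0067). Interferon response genes gave 4 increases and 1 decrease among 27, against 25.5% higher and 8.89% lower over all detected probe sets. The increases numbered 0 without D5fl_331u, D5fl_444t, D5fl_131u, d5wt_110u or d5wt_474u and 2 without 1 of the p53-deficient arrays. The decrease was lost without D5fl_331u, d5wt_323u or d5wt_474u. After quantile normalisation 0 rose and 2 fell. For Slc39a14, a zinc and iron transporter, the scaled signals were 789, 913 and 1090 against 937, 1230 and 1070 (adjusted p = 0.47). Habp2, a secreted protease, was detected on 1 control array and no Apc-deficient array.

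Among the remaining lists, genes of BMP, a signal that opposes Wnt along the villus, and of hedgehog gave together 5 increases and no decrease among 18, but 2 and 3 with the other scaling, 2 and 2 after quantile normalisation and 2 to 4 increases in the omissions of 1 array. Bmpr2, a BMP receptor, stood at 475, 519 and 498 against 1520, 1060 and 1020 (2.38-fold higher, adjusted p = 0.0048). Of 19 cholesterol synthesis genes 4 rose and none fell under either scaling, with 2 and 1 after quantile normalisation, 1 and 1 in the authors' table and 1 higher without d5wt_110u. Srebf1, a transcription factor of lipid synthesis, stood at 559, 468 and 511 against 930, 879 and 913 (1.77-fold higher, adjusted p = 0.013). Among 24 genes of fatty acid oxidation 2 rose and 4 fell, or 1 and 13 with the other scaling. Ppara, the nuclear receptor that drives that pathway, was at least 3.85-fold lower, from 313, 180 and 274 to 67.0, 74.2 and 54.2 (adjusted p = 0.0014), and the thioesterase Acot1 rose from 69.1, 91.5 and 123 to 288, 354 and 456 (3.91-fold, adjusted p = 0.002). Notch and secretory fate genes gave 2 increases and 1 decrease among 14, ileal bile acid genes 1 and 3 among 7, and the unfolded protein response 1 and 1 among 24. With the other scaling these were 1 and 3, 0 and 6, and 1 and 7, and after quantile normalisation 0 and 3, 0 and 5, and 1 and 7. Of 7 genes of MHC class II 2 fell (3 with the other scaling, 4 in the authors' table), H2-Ab1 from 3190, 3170 and 2880 to 1250, 2040 and 1940 (1.80-fold, adjusted p = 0.028), with both calls lost without d5wt_323u or D5fl_331u and that on H2-Ab1 also without d5wt_110u or d5wt_474u (adjusted p up to 0.084). Over all detected probe sets 25.5% were called higher and 8.89% lower. Small lists such as these moved by 1 or more calls in single omissions, and no direction is drawn from their counts.

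Transcripts of other cells in the bowel wall were read from marker lists. All of the small intestine markers with a probe set in use (Vil1, Cdx1, Cdx2, Fabp2, Lct, Muc2, Lyz1 and Chga) were detected on 6 of 6 arrays. Lymphocyte genes fell in 12 of 21 cases and rose in none (18 lower with the other scaling, 7 of 14 over genes detected on all 6 arrays), with a median log2 change of -1.57. Their summed scaled signal was 28438 to 31220 in control and 14234 to 23477 in Apc-deficient intestine. Ccl5, a chemokine of cytotoxic T cells, stood at 2650, 2220 and 2190 against 230, 861 and 589 (4.80-fold lower, adjusted p = 0.012) and Ighm, the IgM heavy chain, at 918, 1190 and 2340 against 379, 387 and 154 (4.85-fold, adjusted p = 0.007). Igha, the heavy chain of IgA plasma cells, stood at 6740, 7520 and 6660 against 7420, 10800 and 9510 (adjusted p = 0.2). Myeloid genes fell in 5 of 17 cases (11 with the other scaling, 3 without D5fl_131u or d5wt_474u) and rose in none, or in 1 without D5fl_444t, D5fl_131u or d5wt_323u. Itgax, a chain of the dendritic cell integrin CD11c, fell from 281, 369 and 478 to 110, 120 and 128 (3.09-fold, adjusted p = 0.0025). Their sum was 9060 to 13155 in control and 6781 to 8683 in Apc-deficient intestine. Xcl1 of the lymphocyte list and S100a9, Cpa3 and Clec4e of the myeloid list were detected on none of the 6 arrays.

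Of 14 detected smooth muscle genes 0 were called by limma under either scaling, and their summed signal was 5690 on d5wt_110u against 16181 and 16976 on the other controls and 10675 to 17899 on the Apc-deficient arrays. Des, desmin, was 22.1 on d5wt_110u, 411 and 812 on the other controls and 292, 703 and 291 on the Apc-deficient arrays. Fibroblast and collagen genes gave 5 decreases among 27 (8 with the other scaling or without D5fl_444t, 3 without D5fl_331u, 2 without d5wt_474u), with sums of 12638 to 22288 and 14158 to 18954. Endothelial genes gave 2 decreases among 11, or 1 in 11 of 12 omissions of 1 array, and enteric nervous system genes 1 among 4, or 0 without d5wt_110u, d5wt_474u or D5fl_444t. In the latter list 8 of the 14 genes measured were detected on no array. Of 5 detected pancreas genes, of 16 measured, 2 fell (1 without d5wt_110u or d5wt_474u), and Cela1, an elastase, stood at 178, 187 and 7000 against 159, 224 and 203. The control array d5wt_110u was thus low in muscle and d5wt_474u high in pancreas transcripts.

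The other 6 arrays, which enter neither group, offer the same contrast on a p53-null background, double-deficient (Cre+ Apc fl/fl p53-/-) against p53-deficient (Cre+ Apc wild-type p53-/-) intestine. Of the 5089 probe sets higher with Apc loss alone, 1202 were also higher in that pair (23.6%, or 83.4% of the 1442 detected probe sets that rose there), and of the 1775 lower ones 713 were lower there (40.2%, or 54.9% of 1299). The background in that pair was 4.87% higher and 4.53% lower over all 35622 tested probe sets. The shares were taken among the 19965 detected ones, where calls were more frequent, 1442 higher and 1299 lower. These counts of the p53-null pair moved with single arrays, without which the shares were not recomputed. They fell from 1442 higher and 1299 lower to 405 and 526 without gap397, 643 and 599 without gap429, 514 and 526 without GAP940 and 711 and 823 without GAP886. In the full set of arrays 1 probe set that rose with Apc loss alone fell in that pair, and 2 that fell rose. Among the called probe sets 91.3% had the same sign, and over all 19965 the log2 changes had Pearson's r of 0.73, a description across probe sets that share 1 estimate of the spread. By list, 16 of the 21 crypt stem cell genes and 42 of the 73 ribosome biogenesis genes rose in p53-null mice too, and 19 of 29 brush border and 17 of 36 xenobiotic genes fell. Ribosomal protein genes rose in 2 of 33 cases there, with a median log2 change of 0.16.

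The difference between the 2 pairs was itself tested, and 1 detected probe set passed, 1 of 3 for the translation factor Eif1ax. None passed when d5wt_110u, d5wt_474u, D5fl_131u, gap397, gap429, GAP901 or GAP940 was left out, 5 passed without d5wt_323u, 64 without D5fl_444t, and 1878 with no scaling. At an unadjusted p under 0.05, 3211 detected probe sets differed (16.1%), so a p that misses the adjusted threshold does not show that the pairs moved alike. Mmp7 changed by 2.62 on the log2 scale with Apc loss alone and 0.96 in p53-null mice (adjusted p of the difference 0.18), Fzd6 3.59 and 0.84 (0.1), and Tnfrsf12a 6.25 and 5.62 (0.66). Siah1a changed by 1.36 and 0.01 (0.19), and Lef1 by 0.43 and 1.51 (0.19). Axin2, at 2.03 and 2.31, and Myc, at 2.70 and 2.55, gave adjusted p of 0.74 and 0.91 for the difference.

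**Figure D4:**
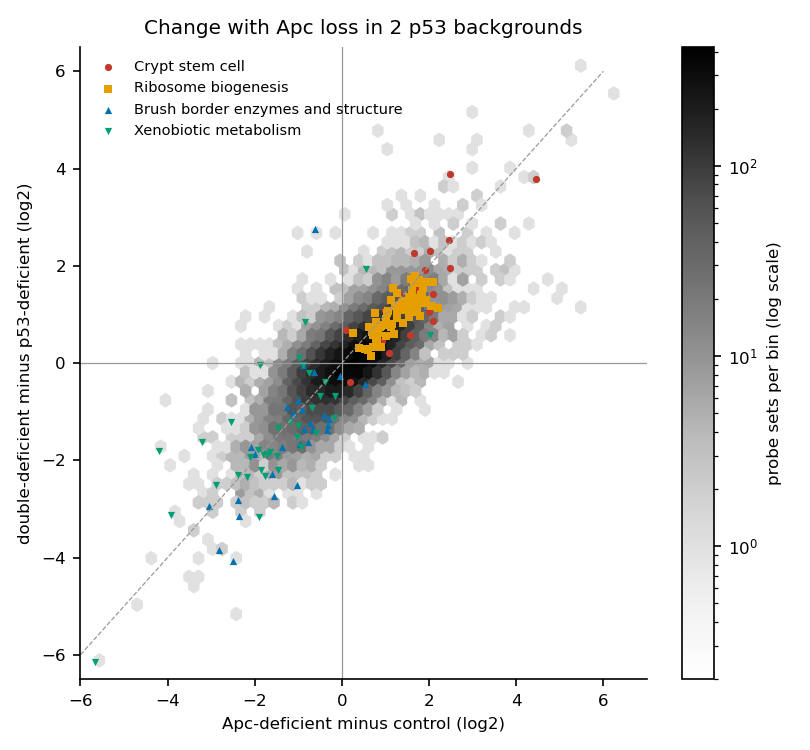
Log2 change with Apc loss in p53 wild-type mice (horizontal, Apc-deficient minus control) and in p53-null mice (vertical, double-deficient minus p53-deficient) over the 19965 detected probe sets, as a density, with genes of 4 lists as symbols and equality as a broken line. The r over all probe sets was 0.73, and 16 of 21 crypt stem cell genes rose in the p53-null pair.

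The promoter windows shown above were read for all genes as well, 8210 of the 10101 detected genes having one of full length. Genes called higher (2132 promoters) had a median ratio of observed to expected CpG of 0.84, with 84.6% at 0.6 or more, while genes called lower (810) had 0.52 and 42.2%, and all detected genes 0.77 and 72.9%. Brush border genes had a ratio of 0.29 and xenobiotic genes 0.18, against 0.88 for both replication and mitosis genes. The letters TTTGAA stood in 71.4% of 49 mitosis promoters, on either strand, against 12.1% of all detected genes and 18.1% of 27025 RefSeq promoters of that length. TTCCCGC or TTGGCGC stood in 56.1% of 41 replication promoters against 12.5% and 6.93%, in 16.9% of those of genes called higher and in 7.65% of those called lower. CACGTG stood in 12 of 63 ribosome biogenesis promoters, among them Nop2, Pes1, Tsr1 and Mybbp1a, against 10.3% and 7.24%. CTTTGAT or CTTTGAA, which shares letters with TTTGAA, stood in 6.19% of genes called higher and 6.91% of those called lower, against 6.29% and 8.77%, and in 3 of 20 promoters of the Wnt list (Sp5, Mmp7 and Tiam1). CAAAGTCC stood in 3.58% of genes called lower, 1.13% of those called higher and 1.53% of all detected genes, against 1.44% of RefSeq promoters, and in 4 of 27 brush border promoters (Treh, Alpi, Ace and Pdzk1). These are matches of letters in a short window and are given as a description, without a test.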

How the data were processed

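Affymetrix MOE430_2 arrays of small intestine RNA were read from the deposited table of signals, in which the authors give for each array a linear intensity per probe set before normalisation and a detection p-value. No source used here names the software that made both. The authors' normalised values, screened and scaled by the global geometric mean in MaxD/View, are deposited as a score of mean near 0 and SD near 1 per array, and served as an alternative.

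Detection columns of 3 double-deficient arrays could not be matched to single samples and were not used, so the screen (detection p under 0.2 on at least 1 array) ran over 9 arrays and not the planned 12. It kept 35622 probe sets. Signals under 1 were set to 1, taken to log2 and centred on each array's mean. limma 3.58.1 (R 4.3.3) was fitted to 12 arrays with 4 genotype means, 8 residual degrees of freedom and Benjamini-Hochberg adjustment over all tested probe sets, calling at an adjusted p under 0.05. In an exact test of 3 arrays against 3, p cannot go below 0.1. The methods' own test, SAM, was not run. The number of arrays limits the precision. On simulated data of 35622 probe sets the Apc effect was recovered for 12 of 100 probe sets changed by 1 on the log2 scale and 69 of 100 changed by 2, with 1 false call. No other probe set was changed there, far fewer than were called in the data. The adjusted threshold was therefore stricter in the simulation, and these shares do not give the recovery in this comparison.

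A gene was represented by its brightest probe set, unique ones preferred. Other probe sets of a gene could differ in size, direction or call, and are given for some genes only. Of the tested probe sets 27434 had 1 symbol in the platform annotation, 749 several and 7439 none, and only the first were named. Genes were named as the 14 largest changes each way among called genes detected on all 6 arrays without overlap, the 6 largest bounds each way, leading or defining members of gene lists, genes the study measured or named, and genes whose change differed with p53 status. The members, lists and tests were chosen with earlier results of these data known. Alternatives were other scalings, screens, floors, detection rules and array sets. Python 3.11.15, pandas 2.3.3 and numpy 2.4.6 made the tables.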

Additional observations from a re-analysis of the deposited data

Results flagged for a closer look

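A probe set of Eif1ax, a translation initiation factor, changed by different amounts in the 2 p53 backgrounds. Its scaled signals were 20.5, 30.0 and 26.2 on the control arrays, where it was not detected, and 294, 294 and 410 on the Apc-deficient arrays, a change of 3.70 on the log2 scale (limma, adjusted p = 6.9e-05). On the p53-deficient arrays they were 184, 142 and 158 and on the double-deficient arrays 360, 299 and 287, a change of 0.97 (adjusted p = 0.024). The difference between these changes was -2.74 ± 0.32 (SE, adjusted p = 0.042). The call was lost when d5wt_110u, d5wt_474u, D5fl_131u, gap397, gap429, GAP901 or GAP940 was left out, since 0 detected probe sets then passed. The other probe sets of the gene gave differences of -0.32 and -0.76 (adjusted p = 0.74 and 0.31), and rose by 1.10 and 1.32 with Apc loss alone.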

How the results depend on the processing

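No call among the named genes reversed under the 20 or 21 alternatives run for each. Of the called ones, 54 of 195 were called under every alternative and 140 under all 12 omissions of 1 array. Counts that moved by over 1.5 times were as follows. Without scaling 1031 probe sets were called higher and 5278 lower. Without the screen 1178 were lower, and 3773 with the screen set on the members alone. With only the 6 arrays compared, 3093 were higher and 955 lower. With members at a detection p under 0.01, 1013 were lower. Without both d5wt_110u and d5wt_474u, 519 were higher and 91 lower. Leaving out 1 array gave 3125 to 4939 higher and 984 to 1702 lower, the lowest without d5wt_110u. With only the 6 arrays compared, the list counts were 35 higher for DNA replication, 48 for ribosome biogenesis and 18 for crypt stem cell genes, and 6 lower for brush border and 10 for xenobiotic genes. Without both d5wt_110u and d5wt_474u they were 3, 8 and 8 higher and 0 and 5 lower. In the p53-null pair the counts were 2985 higher and 514 lower without scaling, 2431 and 2392 with the screen set on the members alone, and 2202 higher with a floor of 20. The difference between the pairs gave 2 probe sets after quantile normalisation, 2 in the authors' table, 2 without gap346, 3 with the screen on the members alone and 0 without both control arrays. Apart from the scalings, whose construction sets the split, and the fits with fewer arrays, the cause was not tested. No paired analysis was possible because the labels give no replicate numbers shared between the groups. Median signals of undetected probe sets, up to 18.1 on the control arrays and 8.1 on the Apc-deficient arrays, set how dim a transcript could be and still be measured in each group.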
